A study of Mus musculus with 18 samples.

Results

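The 40 genes described here carry glucose through glycolysis, the pentose phosphate pathway and the tricarboxylic acid (TCA) cycle, or set the flow between them. They were picked by gene symbol out of the 20615 gene rows of the table, and all 40 had enough reads to be tested. By step they were the transcription factor subunit Hif1a, 3 hexokinases, 9 genes of upper glycolysis, 5 of lower glycolysis, 2 subunits of lactate dehydrogenase, 4 genes of pyruvate dehydrogenase and its kinases, 6 of the pentose phosphate pathway and 10 of the TCA cycle and its isocitrate and malate dehydrogenases. They were measured by RNA-seq in bone marrow-derived macrophages (BMDMs), which are bone marrow cells grown into macrophages in medium holding M-CSF from L929 fibroblasts.

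The BMDMs came from C57BL/6 (B6) mice and from C57BL/6.NOD-Aec1Aec2 mice, called SjSS here, a Sjögren's syndrome model that carries the NOD intervals Aec1 and Aec2 on a B6 background. The mice were 7 to 12 weeks old. The 18 samples formed 6 groups of 3: BMDMs of either strain without treatment (control), after 2 h with 5 apoptotic thymocytes per BMDM followed by washing and 3 h of culture (AC treated), and after 6 h with 1 µM CpG, a DNA oligonucleotide that activates TLR9. The apoptotic cells (ACs) were thymocytes killed with dexamethasone, and the labels do not give their strain. The study took thymi from mice of both strains and did not say which BMDMs received which for RNA-seq. The part of thymocyte strain in the differences between strains with ACs was therefore not tested. The AC and CpG treatments therefore differed in time as well as in agent, and both were read against the same control samples of a strain. The study counted 3 mice per strain, but whether samples with the same number came from 1 mouse was not stated, so p-values measure the spread between these samples.

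Glycolysis turns glucose into pyruvate in the cytosol, and lactate dehydrogenase turns pyruvate into lactate, which frees the NAD+ that the pathway needs. The pentose phosphate pathway branches off after the first step and gives NADPH and ribose, while the TCA cycle oxidises acetyl-CoA that pyruvate dehydrogenase makes from pyruvate. HIF-1α, the product of Hif1a, drives transcription of many glycolytic genes, and macrophages stimulated through Toll-like receptors are known for a shift towards glycolysis and for altered flow through isocitrate dehydrogenase. In bulk samples fewer cells of a type and less RNA per cell cannot be told apart, and mRNA levels are not fluxes.

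Total estimated counts ranged from 30688336 to 57139662 per sample. Levels below are CPM, the count scaled by the TMM adjusted total of its sample, and fold changes are log2 values with their standard error from edgeR's quasi-likelihood fit, whose Benjamini-Hochberg adjusted p had to be under 0.05 for a gene to pass. Without TMM, on library totals alone, the median log2 fold change of all 15789 genes tested moved from -0.017 to -0.43 for ACs in SjSS BMDMs, from -0.041 to -0.22 for CpG in B6, from -0.014 to -0.14 for CpG in SjSS and from -0.046 to -0.35 for SjSS against B6 with ACs, so changes are given relative to the bulk of genes. The 8 macrophage markers were high in all samples, with summed levels of 15105 to 23748 CPM. Of 14 thymocyte markers, 4 passed the filter on low counts, and the whole list summed to between 5.00 and 19.0 CPM in any sample.

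CpG raised glycolytic genes in BMDMs of both strains, from the hexokinase Hk2 at the entry to Ldha at the exit. In B6 BMDMs 25 of the 40 genes rose and 7 fell, where 28.1% of all genes tested rose and 29.8% fell. In SjSS BMDMs 22 rose and 8 fell, beside 27.8% and 26.4% of all genes. On library totals alone 13 fell there, beside 5508 of the 15789 genes tested. With a log2 fold change also over 1.3 in size, the limit in the study's methods, Pfkl rose and Idh1 fell in B6 (5.86% and 6.88% of all genes tested) and Ldhb fell in SjSS (4.45%), while none rose in SjSS (4.81%). A figure legend of the study states this limit as a fold change of 1.3 instead. The median log2 fold change of the 40 was 0.36 in B6 and 0.21 in SjSS, against -0.041 and -0.014 over all genes tested. Of the 40, 22 (55%) were higher and 6 (15%) lower in both strains, beside 22.8% and 22.2% of all genes tested, and 0 went opposite ways in edgeR, beside 0.139% and 0.241% of all genes. All 5 genes of lower glycolysis rose in both, but in SjSS Eno1 and Pkm did not pass on library totals alone, at 0.15 (adjusted p = 0.0885) and 0.057 (adjusted p = 0.524). The summed level of the 17 glycolytic enzymes from glucose phosphorylation to lactate was 5835, 5826 and 5870.1 CPM in B6 controls and 9538, 9736 and 8965 CPM with CpG, and 6275, 6989.8 and 7082 CPM in SjSS controls and 8093, 8591 and 8770.1 CPM with CpG. The CpG samples lay above the controls of their strain in both cases.

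**Figure D1:**
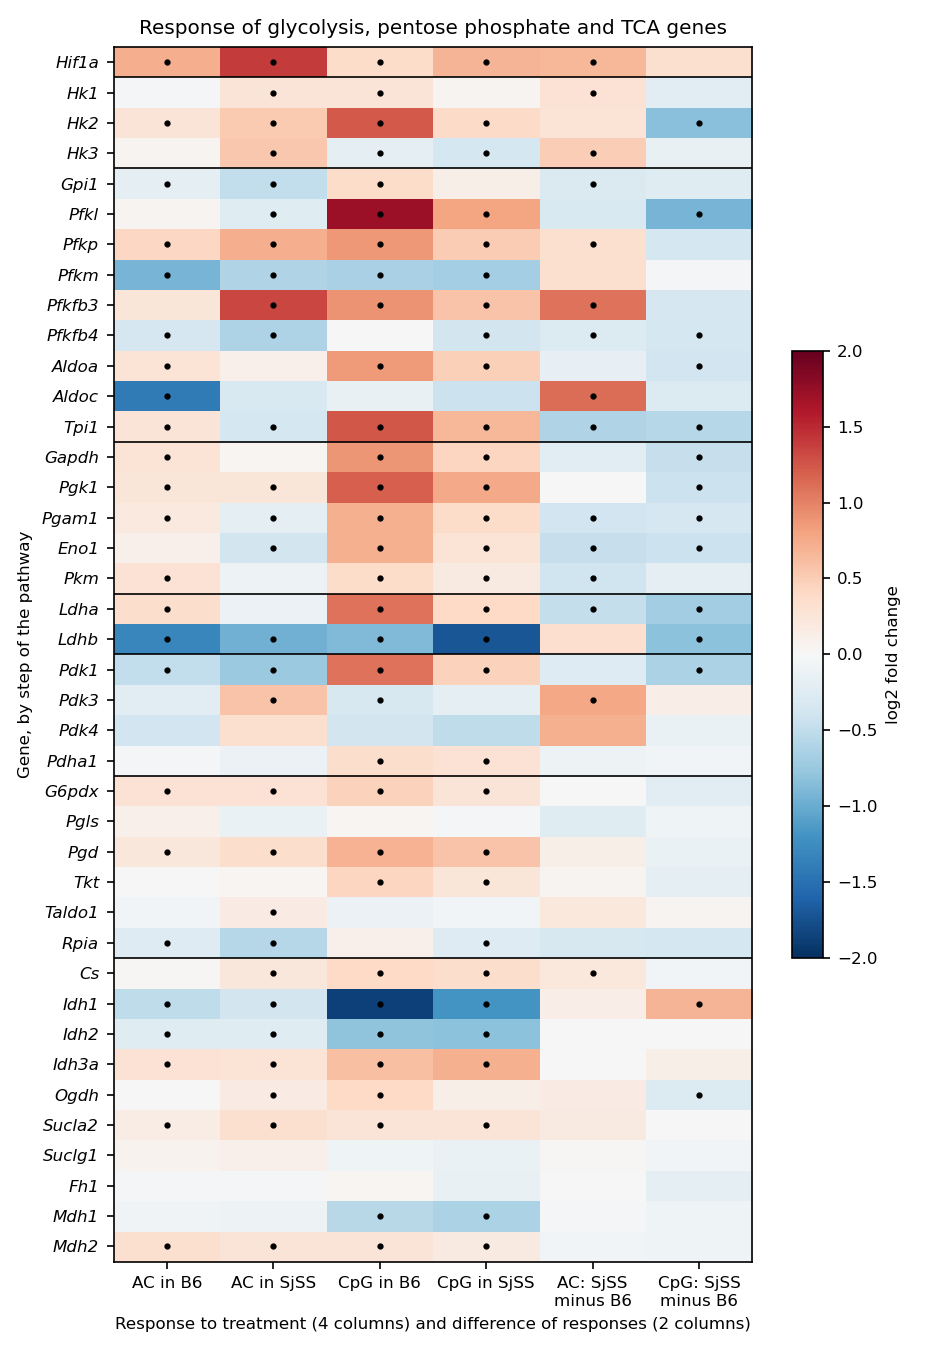
Log2 fold change of the 40 genes (rows, ordered by step) for the response to ACs and to CpG in each strain and, in the last 2 columns, for the response in SjSS minus that in B6; red is higher, blue is lower, and a dot marks an adjusted p under 0.05 (edgeR, 3 samples per group). The CpG columns are mostly red through glycolysis, deepest for Pfkl in B6 at 1.72, while Idh1 and Ldhb are blue in all 4 response columns.

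Hif1a, which encodes the oxygen-regulated subunit of HIF-1, rose with CpG in both strains. Its levels in B6 were 210.4, 211 and 184 CPM in controls and 294, 241 and 245 CPM with CpG. In SjSS they were 171, 169.7 and 123 CPM in controls and 269, 242 and 235 CPM with CpG. Every CpG sample was above every control sample of its strain, with log2 fold changes of 0.37 ± 0.10 in B6 (adjusted p = 0.00548) and 0.68 ± 0.10 in SjSS (adjusted p = 1.72e-05). The B6 rise did not pass on library totals alone, at 0.19 (adjusted p = 0.108).

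The 3 hexokinases, which trap glucose in the cell as glucose 6-phosphate, did not move together. Hk2, the inducible form, had 138, 135 and 129.7 CPM in B6 controls and 311, 330.4 and 298 CPM with CpG. Its SjSS levels were 157, 159.8 and 195 CPM in controls and 215, 193 and 258 CPM with CpG, so that the groups overlapped in SjSS and not in B6. Hk2 rose by 1.22 ± 0.092 in B6 (adjusted p = 1.08e-09) and by 0.38 ± 0.091 in SjSS (adjusted p = 0.00156). Hk1, the widely expressed form, had 84, 87.4 and 95.1 CPM in B6 controls and 98.5, 115 and 106 CPM with CpG, a rise of 0.26 ± 0.059 (adjusted p = 0.000858) that did not pass on library totals alone, at 0.081 (adjusted p = 0.258). In SjSS Hk1 had 95.5, 106 and 104 CPM in controls and 105, 106 and 106 CPM with CpG, overlapping values that did not pass (adjusted p = 0.452). Hk3, a form found in myeloid cells, had 239, 270.4 and 271 CPM in B6 controls and 212, 240.0 and 227 CPM with CpG. In SjSS it had 245, 266 and 262 and 199, 208 and 200.2 CPM in the same order, and it fell, with log2 fold changes of -0.20 ± 0.059 in B6 (adjusted p = 0.00689) and -0.35 ± 0.06 in SjSS (adjusted p = 6.21e-05). Per kilobase of exon Hk3 was the highest of the 3 in controls, at 70.6 CPM per kb in B6 and 69.9 in SjSS, followed by Hk2 at 22.5 and 28.5 and Hk1 at 10.4 and 11.9. Per kilobase of the longest coding transcript Hk3 was again highest, at 80.8 and 80.0. By that length Hk2 and Hk1 were closer, at 24.4 and 20.8 in B6 and 30.9 and 23.8 in SjSS.

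Phosphofructokinase catalyses the committed step of glycolysis, and its liver-type subunit gene Pfkl showed the largest CpG rise of the 40 genes. Pfkl had 106, 94.7 and 103 CPM in B6 controls and 319, 351 and 328 CPM with CpG. In SjSS it had 134, 162 and 179.8 CPM in controls, already above all B6 controls, and 261, 269.7 and 294 CPM with CpG. The log2 fold change was 1.72 ± 0.087 in B6 (adjusted p = 3.76e-12) and 0.79 ± 0.085 in SjSS (adjusted p = 2.13e-07). The platelet-type subunit gene Pfkp went the same way, from 31.3, 39.3 and 44.2 CPM to 65.9, 70.9 and 71.5 CPM in B6 and from 47.5, 50.2 and 48.4 CPM to 67.1, 67.4 and 72.3 CPM in SjSS. Its rises were 0.86 ± 0.083 (adjusted p = 3.93e-08) and 0.50 ± 0.083 (adjusted p = 4.11e-05). The muscle-type gene Pfkm fell from 11.5, 9.95 and 8.61 CPM to 6.45, 6.42 and 6.35 CPM in B6 and from 9.43, 8.52 and 13.9 CPM to 5.78, 7.59 and 6.53 CPM in SjSS, with log2 fold changes of -0.65 ± 0.16 (adjusted p = 0.00228) and -0.69 ± 0.16 (adjusted p = 0.00158). Pfkm overlaps Senp1 on the other strand, whose row held 1303 counts on average beside 369 for Pfkm, and Pfkp likewise overlaps Pitrm1 with 2034 counts beside 2749. Whether the counting used strand is not given in the sources used here.

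Pfkfb3 and Pfkfb4 encode enzymes that set the level of fructose 2,6-bisphosphate, the main activator of phosphofructokinase. Pfkfb3 had 168, 199 and 186 CPM in B6 controls and 336, 376 and 323 CPM with CpG. In SjSS it had 194, 215 and 160.1 CPM in controls and 266, 257 and 319 CPM with CpG. It rose by 0.90 ± 0.098 in B6 (adjusted p = 1.83e-07) and 0.57 ± 0.098 in SjSS (adjusted p = 6.61e-05), with no overlap of groups. Pfkfb4 did not follow it. Its levels were 32.7, 30.6 and 34.9 CPM and 30.9, 34.3 and 32.1 CPM in B6 controls and with CpG (log2 difference -0.014 ± 0.069, adjusted p = 0.879), while in SjSS it fell from 37.5, 38.5 and 39.4 CPM to 28.7, 29.8 and 31.3 CPM, with a log2 fold change of -0.36 ± 0.069 (adjusted p = 0.000186).

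Aldolase splits the 6-carbon sugar, and triose phosphate isomerase, the product of Tpi1, interconverts the resulting trioses. Aldoa, the main aldolase gene here, rose by 0.85 ± 0.065 in B6 and 0.47 ± 0.065 in SjSS (adjusted p = 1.38e-09 and 5.02e-06). Aldoc was low, with 15, 12.3 and 12.6 CPM in B6 controls and 14.7, 10.4 and 10.8 CPM with CpG. Aldoc in SjSS had 5.4, 6.42 and 8.19 CPM in controls and 4.03, 5.61 and 5.32 CPM with CpG, and the difference passed in neither strain (adjusted p = 0.465 in B6 and 0.0519 in SjSS). Tpi1 had 276, 285 and 286 CPM in B6 controls and 662, 695 and 636 CPM with CpG. In SjSS it had 361, 428 and 434 CPM in controls and 638, 646 and 654 CPM with CpG, so that the strains were apart without treatment and overlapped with CpG. The rise was 1.24 ± 0.067 in B6 (adjusted p = 1.01e-11) and 0.66 ± 0.067 in SjSS (adjusted p = 8.11e-08). Gpi1, whose product makes fructose 6-phosphate, rose in B6 by 0.37 ± 0.065 (adjusted p = 7.58e-05) and had a log2 difference of 0.12 ± 0.065 in SjSS that did not pass (adjusted p = 0.126).

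Lower glycolysis makes the ATP and NADH of the pathway, and its 5 genes rose together with CpG. Gapdh, whose product makes NADH, had 122, 123 and 130.5 CPM in B6 controls and 234, 238 and 224 CPM with CpG. Its SjSS levels were 133, 142 and 149 CPM in controls and 174, 184 and 213 CPM with CpG. Part of the reads of Gapdh, Pgk1, Eno1 and Pgam1 lay on near-identical copies, described after the strain comparisons. The Gapdh rise was 0.89 ± 0.071 in B6 (adjusted p = 2.4e-09) and 0.43 ± 0.071 in SjSS (adjusted p = 3.99e-05), so Gapdh, often taken as a reference gene, was not level in these BMDMs. Pgk1, for the first ATP-making step, had 56.9, 57.7 and 56.1 CPM in B6 controls and 134, 135 and 122 CPM with CpG. Pgk1 in SjSS had 64.1, 71.7 and 67.7 CPM in controls and 108, 116 and 121 CPM with CpG. It rose by 1.19 ± 0.089 (adjusted p = 9.19e-10) and 0.76 ± 0.088 (adjusted p = 5.61e-07). Enolase gene Eno1 had 288, 276 and 296 CPM in B6 controls and 482, 479.9 and 453 CPM with CpG. Eno1 in SjSS had 317, 352 and 378 CPM in controls and 403, 429.5 and 440.1 CPM with CpG. Eno1 rose by 0.72 ± 0.069 in B6 (adjusted p = 3.75e-08) and 0.28 ± 0.069 in SjSS (adjusted p = 0.00198). Pgam1 rose by 0.71 ± 0.06 and 0.37 ± 0.06 (adjusted p = 6.72e-09 and 3.63e-05). Pkm, the pyruvate kinase gene and the most highly counted of the 40, had 2153, 2103 and 2066 CPM in B6 controls and 2804, 2793 and 2516 CPM with CpG. Pkm in SjSS had 2045, 2298 and 2337 CPM in controls and 2441, 2590.0 and 2565 CPM with CpG. Its rise passed in both strains, at 0.36 ± 0.07 (adjusted p = 0.000199) and 0.19 ± 0.07 (adjusted p = 0.0312), but in SjSS it did not pass (adjusted p = 0.0807 to 0.169) without SjSS control sample 1 or SjSS CpG sample 2 or 3.

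**Figure D2:**
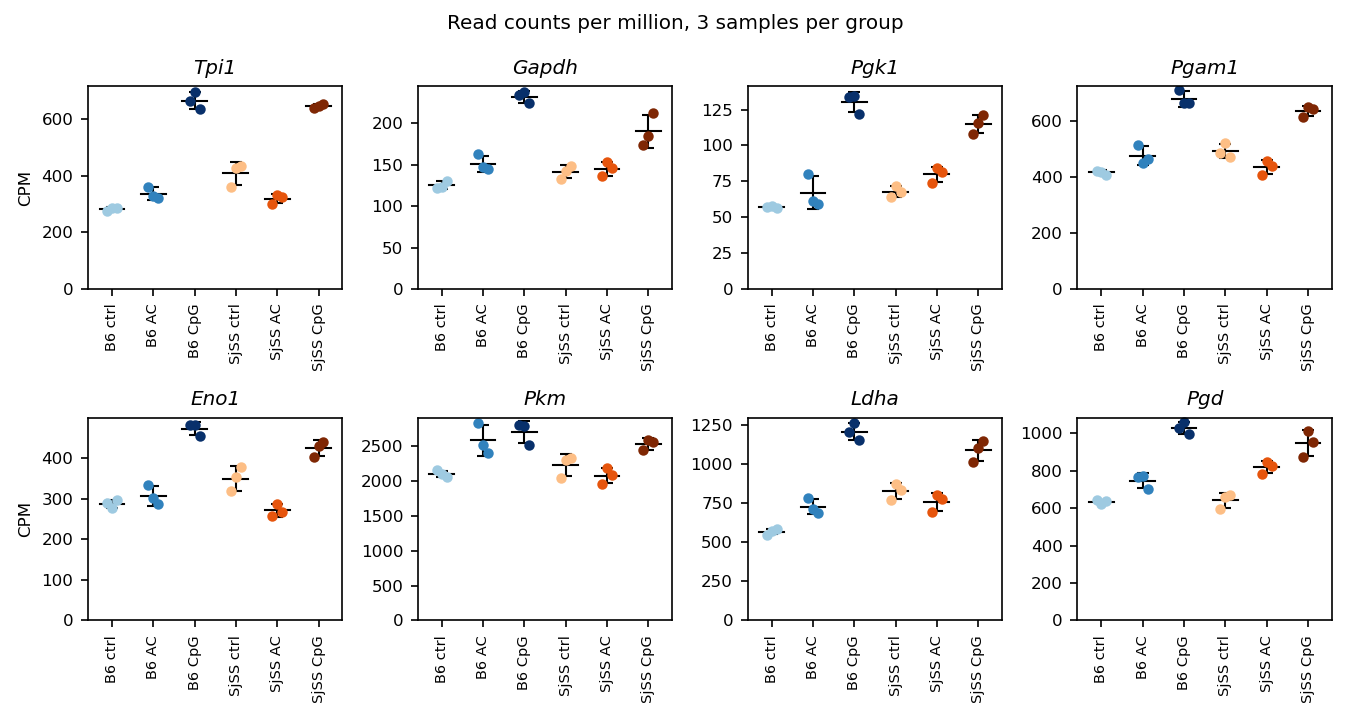
CPM (TMM scaled, linear axis from 0) of 8 enzyme genes in the 18 samples; points are samples, the horizontal line is the mean and the error bar the SD of 3 samples, with ctrl for control. The CpG samples of both strains lie above the controls of their strain for each gene shown, and the SjSS control samples of Tpi1 and Ldha lie above all B6 controls.

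The 2 subunits of lactate dehydrogenase parted with CpG. Ldha, the subunit of the form that favours lactate, had 549, 571 and 582 CPM in B6 controls and 1206, 1262 and 1154 CPM with CpG. In SjSS it had 771, 872 and 832 CPM in controls and 1014, 1100.1 and 1146 CPM with CpG. It rose by 1.09 ± 0.07 in B6 (adjusted p = 1.08e-10) and 0.40 ± 0.069 in SjSS (adjusted p = 7.07e-05). Ldhb, the subunit of the heart-type form, had 29.9, 26.6 and 28.3 CPM in B6 controls and 16.1, 16.1 and 13.9 CPM with CpG. Its SjSS levels were 23.2, 25.1 and 33 CPM in controls and 8.25, 7.91 and 8.7 CPM with CpG, the lowest of any group. Ldhb fell, with log2 fold changes of -0.88 ± 0.11 in B6 (adjusted p = 9.13e-07) and -1.71 ± 0.11 in SjSS (adjusted p = 2.52e-10).

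Pyruvate dehydrogenase kinases switch off the complex that feeds pyruvate to the TCA cycle. Pdk1 had 65.3, 61.4 and 55.8 CPM in B6 controls and 137, 125 and 127 CPM with CpG. Pdk1 in SjSS had 62.9, 70.4 and 68.6 CPM in controls and 92, 91.3 and 94.3 CPM with CpG. It rose by 1.09 ± 0.081 in B6 (adjusted p = 9.53e-10) and 0.46 ± 0.081 in SjSS (adjusted p = 8.41e-05). Pdk3 was lower in level, at 9.4, 9.24 and 9.38 CPM in B6 controls and 7.94, 6.76 and 7.74 CPM with CpG. Pdk3 in SjSS had 8.57, 8.87 and 7.38 CPM in controls and 7.06, 7.19 and 7.45 CPM with CpG. It fell in B6, with a log2 fold change of -0.32 ± 0.091 (adjusted p = 0.0058) and did not pass in SjSS (adjusted p = 0.0925). Pdk4 had the fewest counts of the 40 genes, at 2.27, 0.584 and 1.63 CPM in B6 controls and 1.67, 0.586 and 1.2 CPM with CpG. Pdk4 in SjSS had 1.95, 2.93 and 2.59 CPM in controls and 1.33, 1.66 and 2.26 CPM with CpG, with overlapping groups. Pdha1, a subunit of the complex itself, had 90.1, 87.9 and 80.3 CPM in B6 controls and 119, 106 and 106 CPM with CpG. Pdha1 in SjSS had 77.4, 78.1 and 76.3 CPM in controls and 98.3, 92.6 and 93.8 CPM with CpG. Pdha1 rose by 0.36 ± 0.055 (adjusted p = 1.72e-05) and 0.30 ± 0.056 (adjusted p = 0.000161).

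In the pentose phosphate pathway 3 of 6 genes rose with CpG in each strain, namely G6pdx, Pgd and Tkt. Of all genes tested 28.1% rose in B6 and 27.8% in SjSS. G6pdx encodes the first, rate-setting enzyme of the NADPH-making branch. It had 158, 149.9 and 156 CPM in B6 controls and 222, 221 and 198 CPM with CpG. G6pdx in SjSS had 149, 149 and 156 CPM in controls and 179, 180.2 and 186 CPM with CpG. The rise was 0.47 ± 0.052 in B6 (adjusted p = 2.35e-07) and 0.26 ± 0.052 in SjSS (adjusted p = 0.000249). G6pdx overlaps Ikbkg on the other strand, whose row held 6271 counts on average beside 8414. Pgd, for the second NADPH-making step, rose by 0.69 ± 0.063 and 0.56 ± 0.063 (adjusted p = 1.41e-08 and 3.21e-07), and the transketolase gene Tkt by 0.43 ± 0.073 and 0.24 ± 0.073 (adjusted p = 4.45e-05 and 0.0101), the SjSS call being lost (adjusted p = 0.0624) without SjSS control sample 1 and on library totals alone, at 0.11 (adjusted p = 0.248). Rpia, for ribose 5-phosphate isomerase, fell in SjSS, with a log2 fold change of -0.25 ± 0.089 (adjusted p = 0.0213), a call lost (adjusted p = 0.0739 to 0.112) without SjSS control sample 2 or SjSS CpG sample 3, and Pgls and Taldo1 did not pass in either strain.

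Of the 10 TCA cycle genes 5 rose and 3 fell with CpG in B6 (28.1% and 29.8% of all genes tested), while 4 rose and 3 fell in SjSS (27.8% and 26.4%), so that the share that fell was near that of all genes. The 3 that fell were the same in both strains, and they were Idh1, Idh2 and Mdh1. Idh1 encodes the cytosolic NADP+-dependent isocitrate dehydrogenase, and its levels were 382, 428 and 371 CPM in B6 controls and 102, 110.1 and 111 CPM with CpG. In SjSS they were 254, 244 and 229.9 CPM in controls and 104, 119.7 and 94.9 CPM with CpG, so that the strains were apart without treatment and overlapped with CpG. Idh1 fell, with log2 fold changes of -1.87 ± 0.077 in B6 (adjusted p = 1.98e-13) and -1.19 ± 0.076 in SjSS (adjusted p = 1.32e-10). Idh2, for the mitochondrial NADP+-dependent enzyme, had 55.9, 54.9 and 54.2 CPM in B6 controls and 32, 30.9 and 31.2 CPM with CpG. Idh2 in SjSS had 51.7, 53.9 and 59.5 CPM in controls and 30.1, 34.1 and 29.6 CPM with CpG. It fell, with log2 fold changes of -0.81 ± 0.062 (adjusted p = 1.49e-09) and -0.82 ± 0.063 (adjusted p = 1.88e-09). Mdh1, for cytosolic malate dehydrogenase, fell, with log2 fold changes of -0.55 ± 0.048 and -0.63 ± 0.048 (adjusted p = 8.65e-09 and 1.79e-09), while Mdh2, for the mitochondrial form, rose by 0.26 ± 0.05 and 0.17 ± 0.05 (adjusted p = 0.000191 and 0.00664), the SjSS call being lost (adjusted p = 0.051) without SjSS control sample 1. The Mdh2 rises did not pass on library totals alone, at 0.08 (adjusted p = 0.185) in B6 and 0.045 (adjusted p = 0.475) in SjSS.

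A subunit of the NAD+-dependent isocitrate dehydrogenase of the cycle went against Idh1 and Idh2. Idh3a had 25.1, 23.6 and 22.7 CPM in B6 controls and 39.9, 33.4 and 34.7 CPM with CpG. Idh3a in SjSS had 22.5, 22.4 and 21 CPM in controls and 35.5, 35 and 37.7 CPM with CpG. It rose by 0.60 ± 0.071 in B6 (adjusted p = 6.06e-07) and 0.72 ± 0.072 in SjSS (adjusted p = 8.4e-08). The citrate synthase gene Cs had 119.6, 123 and 118 CPM in B6 controls and 173, 151 and 153 CPM with CpG. Cs in SjSS had 117, 114 and 117 CPM in controls and 144, 147 and 152 CPM with CpG. Cs rose by 0.40 ± 0.05 in B6 (adjusted p = 1.14e-06) and 0.34 ± 0.05 in SjSS (adjusted p = 1e-05). Sucla2 rose in both strains, by 0.26 ± 0.055 and 0.26 ± 0.056 (adjusted p = 0.000472 and 0.000623; in B6 0.08 (adjusted p = 0.182) on library totals), Ogdh rose in B6 by 0.40 ± 0.054 (adjusted p = 3.1e-06), and the fumarase gene Fh1 and Suclg1 did not pass in either strain.

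Promoter sequences are shown for 4 glycolytic genes that rose with CpG in both strains and for Idh1, the gene that fell most in B6, because glycolytic genes are known targets of HIF-1. RefSeq windows (GRCm38.p6, the build mm10) of the 250 bases before a transcription start were at hand for 39 of the 40 genes, in 59 windows. They were searched on both strands for the core letters ACGTG and GCGTG of the HIF response element, and matches are set in capitals, where CACGT and CACGC are the same cores read on the other strand. The E-box CACGTG holds ACGTG on either strand and counts as 2 overlapping matches. Sequences run 5′ to 3′ on the strand of the gene.
Pfkl, chr10:78009808-78010057, minus strand: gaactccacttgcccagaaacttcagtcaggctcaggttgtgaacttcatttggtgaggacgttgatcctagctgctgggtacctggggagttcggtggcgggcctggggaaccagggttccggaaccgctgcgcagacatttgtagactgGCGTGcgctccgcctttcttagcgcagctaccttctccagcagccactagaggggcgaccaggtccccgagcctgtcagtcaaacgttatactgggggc
Hk2, chr6:82774455-82774704, minus strand: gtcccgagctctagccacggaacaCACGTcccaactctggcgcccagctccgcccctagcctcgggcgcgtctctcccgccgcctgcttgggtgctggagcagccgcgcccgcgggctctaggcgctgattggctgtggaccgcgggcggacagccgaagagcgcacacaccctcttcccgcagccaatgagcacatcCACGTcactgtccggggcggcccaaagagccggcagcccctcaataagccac
Pgk1, chrX:106186850-106187099, plus strand: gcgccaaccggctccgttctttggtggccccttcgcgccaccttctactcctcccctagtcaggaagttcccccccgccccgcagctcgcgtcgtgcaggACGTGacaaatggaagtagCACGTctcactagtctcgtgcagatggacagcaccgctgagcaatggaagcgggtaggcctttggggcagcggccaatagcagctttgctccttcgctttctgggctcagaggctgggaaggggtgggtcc
Ldha, chr7:46845554-46845803, plus strand: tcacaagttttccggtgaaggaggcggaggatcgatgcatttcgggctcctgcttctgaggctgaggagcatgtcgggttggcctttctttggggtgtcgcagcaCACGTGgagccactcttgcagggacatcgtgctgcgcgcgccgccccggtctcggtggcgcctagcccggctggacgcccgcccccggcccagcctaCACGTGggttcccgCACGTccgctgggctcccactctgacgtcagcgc
Idh1, chr1:65186480-65186729, minus strand: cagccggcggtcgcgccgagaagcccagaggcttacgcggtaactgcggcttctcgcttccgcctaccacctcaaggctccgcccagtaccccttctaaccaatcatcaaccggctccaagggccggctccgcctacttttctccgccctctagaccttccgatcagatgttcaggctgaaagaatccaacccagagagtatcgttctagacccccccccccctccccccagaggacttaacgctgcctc
Pfkl had 1 match, Hk2 and Pgk1 had 2 each, the Ldha window, 1 of 2 for that gene and the one with more matches, had 5, and the Idh1 window, the upstream one of 2, had none. The windows not shown held 1 match each, for Ldha 59 and for Idh1 134 bases before the start, so Idh1 did not lack a core. At least 1 core was found for 35 of 39 genes (89.7%), against 60.0% of 10390 genes tested that had a window and 41.5% of all 27025 genes in the RefSeq table. The core ACGTG alone was found for 13 of 39 genes (33.3%), against 24.4% of genes tested. Among the genes that rose with CpG in B6, 20 of 24 (83.3%) held a core, and among the others 15 of 15, and the other 4 of the 24 held none. Genes differ in their number of windows, and a match is a description of letters and not of a bound site.

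With ACs the largest rises among the 40 genes were those of Hif1a and Pfkfb3 in SjSS BMDMs, and the largest falls those of Aldoc and Ldhb in B6 BMDMs. In B6 15 of the 40 rose and 9 fell, where 20% of all genes tested rose and 18.3% fell. In SjSS 16 rose and 12 fell, beside 28.6% and 29.4% of all genes. On library totals alone the split in SjSS was 3 higher and 29 lower, beside 2080 higher and 8933 lower of the 15789 genes tested. Most genes moved down together on that scale. Of the 40, 9 (22.5%) rose and 8 (20%) fell in both strains, beside 14.4% and 11.8% of all genes tested. Pgam1 and Tpi1 rose in B6 and fell in SjSS, which makes 5% of the genes beside 1.27% of all genes tested. In the other direction, 0 of the 40 fell in B6 and rose in SjSS in edgeR, beside 1.75% of all genes tested. With a log2 fold change also over 1.3 in size, Aldoc and Ldhb fell in B6 (2.04% of all genes tested) and none rose (2.43%), and Hif1a and Pfkfb3 rose in SjSS (7.09%) and none fell (5.83%). The median log2 fold change was 0.055 in B6 and 0.042 in SjSS, against 0.0015 and -0.017 over all genes. The 17 glycolytic enzymes summed to 7372, 6724 and 6446 CPM in AC treated B6 BMDMs, all above the B6 controls, and to 6210.2, 6806 and 6617 CPM in AC treated SjSS BMDMs, within the range of the SjSS controls except for 1 sample below it.

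Markers of thymocytes, the cells that were added, are given beside these results. Most of the summed level of the 14 thymocyte markers was Cd4, which was present in controls that got no thymocytes, at 7.73 to 9.52 CPM in B6 and 9.79 to 11.1 CPM in SjSS. With ACs Cd4 was at 3.36 to 3.80 CPM in B6 and 12.2 to 17.1 CPM in SjSS, so that the whole list summed to 5.20 to 6.196 CPM against 8.47 to 10.8 CPM in B6 controls and to 14.9 to 19.0 CPM against 10.6 to 12.5 CPM in SjSS controls. The other 13 markers were summed without Cd4 after its level was seen. Their sum was higher with ACs in both strains, at 1.85 to 2.65 CPM against 0.737 to 1.40 CPM in B6 and 1.93 to 2.92 CPM against 0.828 to 1.34 CPM in SjSS, with no overlap. In SjSS the means of Lat, Lck and Tcf7 went from 0.546, 0.155 and 0.157 CPM to 0.976, 0.651 and 0.376 CPM. Those of Cd3d, Cd3e, Dntt and Themis were not higher there, at 0.040, 0.034, 0.012 and 0.010 CPM in controls and 0.034, 0.029, 0.007 and 0 CPM with ACs. The remaining means were higher. Rag1 was at 0 in all control and CpG samples. With ACs it was at 0.139 to 0.178 CPM in B6 and 0.021 to 0.026 CPM in SjSS, with no overlap. Dntt likewise had 0.076 to 0.159 CPM in AC treated B6 BMDMs and 0 to 0.021 CPM in AC treated SjSS BMDMs. Lck and Lat went the other way. With ACs they had 0.208 to 0.338 and 0.416 to 0.602 CPM in B6 and 0.568 to 0.757 and 0.673 to 1.16 CPM in SjSS. The part of thymocyte RNA in the changes, and in the differences between strains with ACs, was not tested.

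Hif1a rose with ACs in both strains, and on the TMM scale more in SjSS. It stood at 314, 332 and 360.4 CPM in AC treated B6 BMDMs and 399, 401 and 419.9 CPM in AC treated SjSS BMDMs, above every control and CpG sample. The rise was 0.73 ± 0.10 in B6 (adjusted p = 1.76e-05) and 1.40 ± 0.11 in SjSS (adjusted p = 1.19e-09), and the responses differed by 0.66 ± 0.15 (interaction of strain with treatment, adjusted p = 0.00151). On library totals alone the rise in SjSS was 0.98, and the difference between the responses did not pass, at 0.32 (adjusted p = 0.0572).

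Pfkfb3, a known HIF-1 target, had the largest strain difference in AC response after Aldoc. It stood at 218, 221 and 219 CPM in AC treated B6 BMDMs and 466, 451 and 512 CPM in AC treated SjSS BMDMs, higher than any other sample in the study. In SjSS it rose by 1.33 ± 0.099 (adjusted p = 8.82e-10), while the B6 difference of 0.25 ± 0.098 did not pass (adjusted p = 0.0519) although its groups did not overlap. The responses differed by 1.08 ± 0.14 (adjusted p = 5.04e-06). Pfkfb4 went the other way, at 27.7, 25.2 and 24.8 CPM in B6 and 24.9, 27.2 and 23.2 CPM in SjSS with ACs, log2 fold changes of -0.34 ± 0.069 (adjusted p = 0.000661) and -0.62 ± 0.069 (adjusted p = 3.03e-07) that differed by -0.28 ± 0.098 (adjusted p = 0.0303), a difference lost (adjusted p = 0.0525 to 0.095) without B6 control sample 1 or 2 or SjSS control sample 2 or 3 or B6 AC sample 1 or SjSS AC sample 1 or 3.

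**Figure D3:**
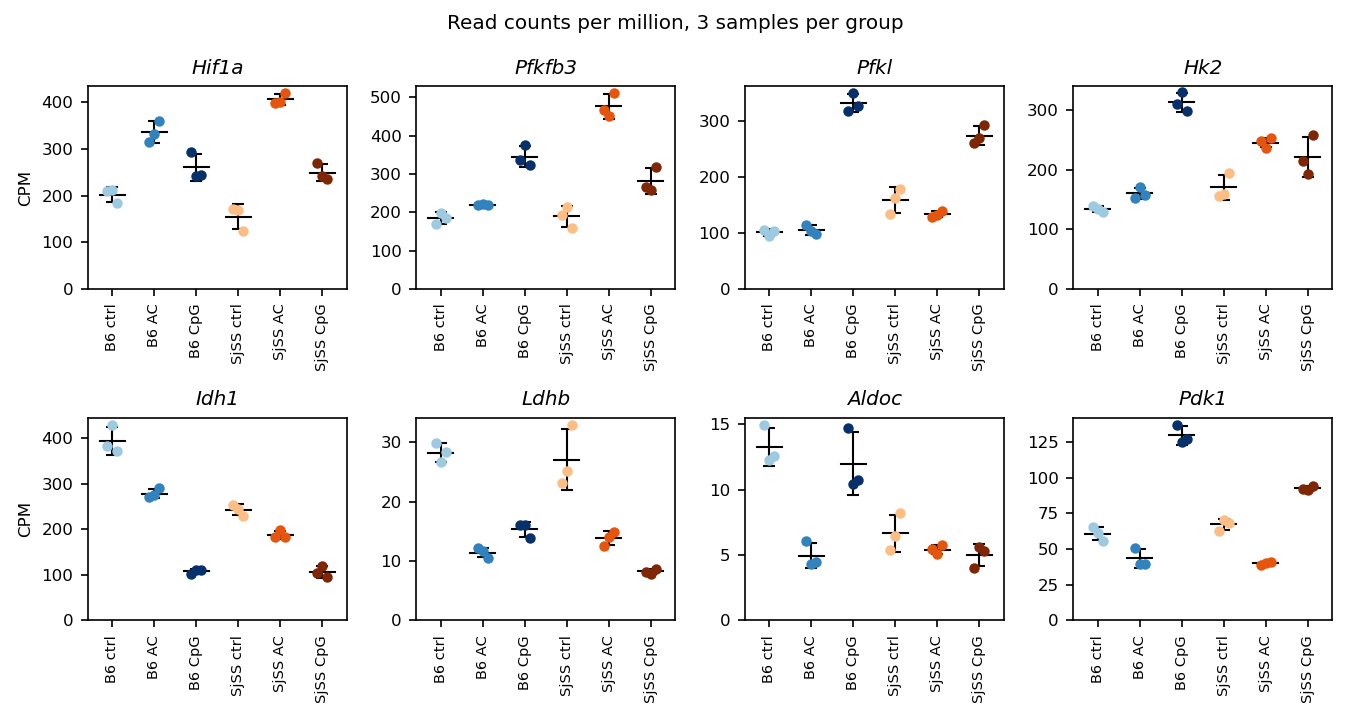
CPM (TMM scaled, linear axis from 0) of 8 genes in the 18 samples; points are samples, the horizontal line is the mean and the error bar the SD of 3 samples, with ctrl for control. Hif1a and Pfkfb3 are highest in AC treated SjSS BMDMs, Pfkl, Hk2 and Pdk1 in CpG treated B6 BMDMs, and Idh1 and Ldhb fall with both treatments.

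All 3 hexokinases rose with ACs in SjSS on the TMM scale, and none of these rises held on library totals alone. Hk2 had 247, 237 and 252 CPM, Hk3 368, 363 and 394 CPM and Hk1 121, 123 and 123 CPM in AC treated SjSS BMDMs, each clear of the SjSS controls. Their rises were 0.53 ± 0.091, 0.54 ± 0.059 and 0.26 ± 0.059 (adjusted p = 5.83e-05, 2.12e-07 and 0.000904), and on library totals they were 0.11 (adjusted p = 0.29) for Hk2 and 0.13 (adjusted p = 0.0585) for Hk3, while that of Hk1 turned to -0.15. In AC treated B6 BMDMs Hk2 had 152, 171 and 157 CPM, Hk3 269.6, 276 and 261 CPM and Hk1 87.5, 85.6 and 88.6 CPM. Only Hk2 passed among the 3 in B6, at 0.25 ± 0.091 (adjusted p = 0.0329), and its call was lost (adjusted p = 0.0575 to 0.133) without B6 control sample 2 or 3 or B6 AC sample 2 or 3, and on library totals alone, at 0.18 (adjusted p = 0.127). The responses differed between strains for Hk3, by 0.49 ± 0.084 (adjusted p = 0.00012), and for Hk1, by 0.29 ± 0.084 (adjusted p = 0.0111), but on library totals alone these were 0.15 (adjusted p = 0.138) and -0.056.

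The phosphofructokinase subunits changed in different directions with ACs. Pfkp had 50.5, 50.3 and 52 CPM in B6 and 83.6, 79.5 and 79.8 CPM in SjSS with ACs, a rise of 0.41 ± 0.083 (adjusted p = 0.000605) and 0.73 ± 0.083 (adjusted p = 3.27e-07). Pfkm had 6.196, 4.54 and 5.06 CPM and 6.25, 7.8 and 6.86 CPM, log2 fold changes of -0.93 ± 0.17 (adjusted p = 0.000178) and -0.61 ± 0.16 (adjusted p = 0.00358). Pfkl, which rose most with CpG, had 115, 103 and 98.9 CPM in AC treated B6 BMDMs, which overlapped the controls. In SjSS Pfkl had 128, 133 and 139 CPM, which overlapped the controls, and the log2 fold change of -0.25 ± 0.085 (adjusted p = 0.0188) did not pass (adjusted p = 0.055 to 0.148) without SjSS control sample 2 or 3 or SjSS AC sample 1.

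The AC response differed by strain for Tpi1, for 3 of the 5 genes of lower glycolysis and for 1 of the 2 lactate dehydrogenase genes. Of the 40 genes 8 (20%) responded higher and 7 (17.5%) lower in SjSS, beside 19.6% and 18.3% of all genes tested. These shares were near those of all genes. Tpi1 had 361, 329 and 320.1 CPM in AC treated B6 BMDMs and 301, 331 and 324 CPM in AC treated SjSS BMDMs, a rise of 0.25 ± 0.067 (adjusted p = 0.00503) against a fall, at -0.35 ± 0.067 (adjusted p = 0.000143). Eno1 had 335, 300.2 and 286 CPM and 257, 288 and 268 CPM, with no call in B6 (0.097 ± 0.069, adjusted p = 0.298) and a log2 fold change of -0.37 ± 0.069 in SjSS (adjusted p = 0.000149). Pkm had 2836, 2519 and 2404 CPM and 1965, 2186 and 2087 CPM, a rise of 0.30 ± 0.07 in B6 (adjusted p = 0.00231) and a log2 difference of -0.099 ± 0.07 without a call in SjSS (adjusted p = 0.24). Ldha had 781, 713 and 689 CPM and 691, 805 and 776 CPM, a rise of 0.36 ± 0.069 in B6 (adjusted p = 0.000391) and a log2 difference of -0.12 ± 0.069 without a call in SjSS (adjusted p = 0.136). Gapdh had 162, 147 and 145 CPM and 136, 153 and 146 CPM, and Pgk1 80.1, 61.3 and 59.4 CPM and 73.9, 84 and 81.7 CPM. Gapdh rose in B6 by 0.27 ± 0.07 (adjusted p = 0.00447) and Pgk1 in both strains, by 0.23 ± 0.088 and 0.24 ± 0.088 (adjusted p = 0.043 and 0.0275). On library totals alone Ldha, Pkm and Gapdh fell in SjSS, at -0.54, -0.51 and -0.37 (adjusted p = 1.11e-06, 3.12e-06 and 0.000137). The Pgk1 call in B6 was lost (adjusted p = 0.0501 to 0.387) without B6 control sample 1, 2 or 3 or SjSS CpG sample 2 or B6 AC sample 1 or SjSS AC sample 3, and that in SjSS (adjusted p = 0.0595 to 0.105) without SjSS control sample 1 or 3 or SjSS AC sample 2 or 3. Neither rise of Pgk1 passed on library totals alone, at 0.16 (adjusted p = 0.162) in B6 and a turned -0.18 in SjSS.

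For 6 glycolytic enzymes the AC response was lower in SjSS than in B6. These 6 were among 7 of the 40 genes (17.5%) that responded lower, beside 18.3% of all genes tested. The difference was -0.61 ± 0.094 for Tpi1 (adjusted p = 4.52e-05), -0.48 ± 0.098 for Ldha (adjusted p = 0.000677), -0.46 ± 0.098 for Eno1 (adjusted p = 0.000967), -0.39 ± 0.099 for Pkm (adjusted p = 0.00389), -0.38 ± 0.085 for Pgam1 (adjusted p = 0.00169) and -0.29 ± 0.092 for Gpi1 (adjusted p = 0.0188), the last lost (adjusted p = 0.0549 to 0.0659) without SjSS control sample 3 or B6 AC sample 1. Pgam1 itself rose in B6 by 0.19 ± 0.06 (adjusted p = 0.0149; 0.12 and not passed on library totals), lost (adjusted p = 0.0527 to 0.108) without B6 control sample 3 or B6 AC sample 1, and fell in SjSS at -0.18 ± 0.06 (adjusted p = 0.0141), lost (adjusted p = 0.084 to 0.089) without SjSS control sample 2 or SjSS AC sample 1. Gpi1 fell in both strains, at -0.20 ± 0.065 in B6 (adjusted p = 0.0192) and -0.49 ± 0.065 in SjSS (adjusted p = 2.71e-06), the B6 call being lost (adjusted p = 0.0558 to 0.127) without B6 control sample 1 or B6 AC sample 2 or 3. Aldoa rose in B6 by 0.27 ± 0.065 (adjusted p = 0.00265) and did not pass in SjSS (adjusted p = 0.189). On library totals alone Aldoa fell in SjSS, at -0.31 (adjusted p = 0.000339). AC treated levels of Tpi1 and Ldha overlapped between the strains, while their control means were higher in SjSS. These means were 408 and 825 CPM in SjSS controls, beside 282 and 567 CPM in B6 controls.

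Ldhb and Aldoc, the less abundant forms of their enzymes, fell furthest with ACs in B6. Ldhb had 12.1, 11.7 and 10.6 CPM in B6 and 12.6, 14.1 and 15 CPM in SjSS with ACs, log2 fold changes of -1.304 ± 0.11 (adjusted p = 2.59e-08) and -0.96 ± 0.11 (adjusted p = 3.44e-07). Aldoc had 6.1, 4.33 and 4.46 CPM in AC treated B6 BMDMs and fell, with a log2 fold change of -1.42 ± 0.17 (adjusted p = 2.54e-06). In SjSS, where Aldoc was low without treatment, it had 5.43, 5.07 and 5.77 CPM with ACs and did not pass (adjusted p = 0.155), and the responses differed by 1.12 ± 0.25 (adjusted p = 0.0014). On library totals alone Aldoc fell in SjSS too, at -0.72 (adjusted p = 0.00183), and the responses differed by 0.77 (adjusted p = 0.0162). Per kilobase of exon the major forms were far higher in controls, with Ldha at 171 CPM per kb beside 18.02 for Ldhb and Aldoa at 355 beside 4.07 for Aldoc in B6.

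Pdk1, which rose with CpG, fell with ACs against the same controls. With ACs Pdk1 had 51.1, 39.8 and 39.5 CPM in B6 and 39.1, 40.5 and 40.8 CPM in SjSS, and fell, with log2 fold changes of -0.48 ± 0.082 (adjusted p = 0.000108) and -0.74 ± 0.083 (adjusted p = 2.55e-07). Pdk3 had 8.54, 8 and 7.73 CPM in B6 and 11.1, 12.7 and 12.9 CPM in SjSS. It rose in SjSS by 0.57 ± 0.091 (adjusted p = 2.35e-05) and had a difference of -0.21 ± 0.09 in B6 that did not pass (adjusted p = 0.0815), and the responses differed by 0.78 ± 0.13 (adjusted p = 9.08e-05). Its SjSS rise did not pass on library totals alone, at 0.16 (adjusted p = 0.134), while the difference was 0.43 (adjusted p = 0.00827). Pdha1 had 84.4, 84.3 and 85.4 CPM in B6 and 74.5, 68.7 and 70.1 CPM in SjSS with ACs and did not pass in either strain. On library totals alone Pdha1 fell in SjSS, at -0.53 (adjusted p = 6.1e-08). Pdk4 had 1.11, 1.4 and 0.958 CPM and 2.22, 3.13 and 3.9 CPM, and neither response passed.

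In the pentose phosphate pathway G6pdx and Pgd rose with ACs in both strains. G6pdx had 183, 198 and 183 CPM in B6 and 185, 182 and 187 CPM in SjSS, a rise of 0.28 ± 0.052 (adjusted p = 0.000224) and 0.29 ± 0.052 (adjusted p = 9.34e-05), the latter -0.13 on library totals alone. Pgd rose by 0.23 ± 0.062 and 0.35 ± 0.063 (adjusted p = 0.00591 and 8.31e-05; 0.16 without a call for B6 and -0.064 for SjSS on library totals), and Rpia fell, with log2 fold changes of -0.26 ± 0.088 and -0.58 ± 0.09 (adjusted p = 0.0277 and 1.76e-05). The Rpia call in B6 was lost (adjusted p = 0.0671 to 0.117) without B6 control sample 1 or 2 or B6 AC sample 1 or 2. Taldo1 rose in SjSS by 0.17 ± 0.061 (adjusted p = 0.0242; -0.24 on library totals), a call lost (adjusted p = 0.0919 to 0.161) without SjSS control sample 1 or SjSS AC sample 2.

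Of the 10 TCA cycle genes 3 rose and 2 fell with ACs in B6 (20% and 18.3% of all genes tested), and 5 rose and 2 fell in SjSS (28.6% and 29.4%). Idh1 had 270.3, 275 and 289.6 CPM in B6 and 183, 198 and 183 CPM in SjSS with ACs, log2 fold changes of -0.50 ± 0.074 (adjusted p = 2.61e-05) and -0.37 ± 0.074 (adjusted p = 0.0003). Idh2 had 48.7, 47.3 and 43.7 CPM and 46.2, 46.7 and 46.3 CPM, log2 fold changes of -0.24 ± 0.061 (adjusted p = 0.00424) and -0.25 ± 0.062 (adjusted p = 0.00204). Idh3a had 30.3, 27.9 and 29.1 CPM and 24.9, 28.7 and 26.4 CPM, a rise of 0.29 ± 0.071 (adjusted p = 0.00298) and 0.28 ± 0.072 (adjusted p = 0.00267; -0.13 on library totals). Mdh2 and Sucla2 also rose in both strains, by 0.15 to 0.33, the Sucla2 call in B6 being lost (adjusted p = 0.0667 to 0.168) without B6 control sample 1 or 3 or B6 AC sample 1 or 3. On library totals the SjSS values stood at -0.16 for Mdh2 and -0.085 for Sucla2, and the Sucla2 rise in B6 did not pass, at 0.081 (adjusted p = 0.226). Cs had 124, 119.6 and 121 CPM in B6, where its difference of 0.016 ± 0.05 did not pass (adjusted p = 0.839), and 135, 136 and 138 CPM in SjSS, where it rose by 0.23 ± 0.05 (adjusted p = 0.000658; -0.18 on library totals). Ogdh also rose in SjSS, by 0.16 ± 0.055 (adjusted p = 0.0165; -0.25 on library totals), a call lost (adjusted p = 0.0606 to 0.0914) without SjSS control sample 1 or SjSS AC sample 3.

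Without treatment SjSS BMDMs held more transcript of several glycolytic genes than B6 BMDMs. Of the 40 genes, 11 were higher and 3 lower in SjSS, beside 9.04% and 10.6% of all genes tested. Of the 11, 10 belonged to glycolysis, with 2 of 3 hexokinases, 5 of 9 upper, 2 of 5 lower and 1 of 2 lactate genes. The highest differences were Pfkl at 0.65 ± 0.086 (adjusted p = 3.34e-05), Ldha at 0.54 ± 0.069 (adjusted p = 2.41e-05) and Tpi1 at 0.53 ± 0.067 (adjusted p = 2e-05), with no overlap between the control samples of the strains. The eleventh was Fh1 at 0.35 ± 0.067 (adjusted p = 0.00105). Beside these, 0 of the 6 pentose phosphate genes passed in edgeR, with 1 higher and 1 lower at an unadjusted p under 0.05. Lower in SjSS were Aldoc at -0.99 ± 0.17 (adjusted p = 0.00042), Idh1 at -0.70 ± 0.074 (adjusted p = 2.99e-06) and Hif1a at -0.39 ± 0.10 (adjusted p = 0.0143). The Hif1a call was lost (adjusted p = 0.0527 to 0.0769) without B6 control sample 1 or 2 or SjSS control sample 3. Hk1 (adjusted p = 0.0808 to 0.113) and Pfkfb4 (adjusted p = 0.0576 to 0.114) were lost without B6 control sample 1 or 2 or SjSS control sample 2 or 3. Gpi1 was lost (adjusted p = 0.0567 to 0.11) without B6 control sample 2 or SjSS control sample 2 or 3. Hk2 was lost (adjusted p = 0.0857) without SjSS control sample 3. Without SjSS control sample 3 the number of genes higher in SjSS was 7. On the stricter rule over 1.3, 0 of the 40 passed in either direction (1.3% of all genes tested were higher and 0.716% lower).

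Summed levels of fibroblast and macrophage markers also differed between the control groups. The 3 fibroblast markers summed to between 20.8 and 63.7 CPM in B6 controls and 77.1 and 110.9 CPM in SjSS controls, and the 8 macrophage markers to between 17654 and 18389 CPM and 15105 and 15766 CPM. Lyz2 was the largest macrophage marker, with means of 11328 CPM in B6 and 8958 CPM in SjSS. Adgre1, Cd68 and Itgam had means of 1627, 834 and 971 CPM in B6 and 1606, 821 and 969 CPM in SjSS. Csf1r, Fcgr1 and Cd14 were also lower in SjSS, and Mertk was higher. Col1a1 was the largest fibroblast marker, with means of 36.4 and 88.6 CPM, while Col3a1 and Dcn overlapped. The part of these markers in the strain differences was not tested. Idh1 (chr1:65158616-65186501, minus strand) and Fh1 (chr1:175600374-175625636, minus strand) lie on chromosome 1, as does the NOD interval Aec2, and whether either gene falls inside that interval was not tested.

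With ACs 13 of the 40 genes were higher in SjSS than in B6 and 4 lower, beside 24% and 25.5% of all genes tested. On library totals alone the split was 7 higher and 26 lower, beside 2085 higher and 8385 lower of the 15789 genes tested. Pfkfb3 was higher by 1.12 ± 0.098 (adjusted p = 1.94e-08), Pfkp by 0.67 ± 0.083 (adjusted p = 1.92e-06), Hk2 by 0.62 ± 0.091 (adjusted p = 1.62e-05), Pdk3 by 0.60 ± 0.09 (adjusted p = 2.16e-05) and Pdk4, at 3.90 CPM or less in every sample, by 1.41 ± 0.38 (adjusted p = 0.00474). Lower were Idh1 at -0.57 ± 0.075 (adjusted p = 4.18e-06), Pkm at -0.31 ± 0.07 (adjusted p = 0.00101), Pdha1 at -0.25 ± 0.056 (adjusted p = 0.000965) and Eno1 at -0.18 ± 0.069 (adjusted p = 0.0378), the last lost (adjusted p = 0.0532 to 0.219) without B6 CpG sample 3 or B6 AC sample 1 or 2 or SjSS AC sample 1 or 3. With the log2 fold change also over 1.3, Pdk4 was higher (6.24% of all genes tested) and none was lower (2.69%). The small Hif1a difference of 0.28 ± 0.10 (adjusted p = 0.0334) was lost (adjusted p = 0.0556 to 0.122) without B6 AC sample 1 or 2 or SjSS AC sample 1, 2 or 3 and turned to -0.022 on library totals.

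With CpG 12 of the 40 genes were lower in SjSS and 0 higher by edgeR, beside 9.57% and 10.2% of all genes tested. At an unadjusted p under 0.05 only Fh1 was higher, and DESeq2 also called 0 higher. On library totals alone 1 was higher and 5 lower, beside 2806 higher and 855 lower of the 15789 genes tested. The lower genes included Aldoc at -1.27 ± 0.17 (adjusted p = 3.91e-05), Ldhb at -0.89 ± 0.11 (adjusted p = 2.11e-05), Hk2 at -0.50 ± 0.091 (adjusted p = 0.000638) and Pdk1 at -0.49 ± 0.081 (adjusted p = 0.000252). Pfkl, higher in SjSS without treatment, was lower with CpG at -0.28 ± 0.085 (adjusted p = 0.0275), a call that was lost (adjusted p = 0.0841 to 0.109) without B6 CpG sample 2 or SjSS CpG sample 1 or 2 and on library totals alone, at -0.18 (adjusted p = 0.161). Without SjSS CpG sample 1 the number of lower genes was 7, and over 1.3 in size 0 of the 40 passed (1.82% of all genes tested higher and 0.792% lower).

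The difference between the strains' responses was tested as an interaction. With ACs 8 of the 40 genes responded higher and 7 lower in SjSS, beside 19.6% and 18.3% of all genes tested. On library totals alone 3 responded higher and 25 lower, beside 1445 and 6623 of the 15789 genes tested. With CpG 1 gene responded higher and 13 lower in SjSS, beside 3.23% and 2.62% of all genes tested. These 13 genes were Hk2, Pfkl, Pfkfb4, Aldoa, Tpi1, Gapdh, Pgk1, Pgam1, Eno1, Ldha, Ldhb, Pdk1 and Ogdh. All but Ldhb, Pfkfb4 and Ogdh rose in both strains and rose less in SjSS, and the difference was -0.92 ± 0.12 for Pfkl (adjusted p = 0.000175), -0.84 ± 0.13 for Hk2 (adjusted p = 0.000697), -0.69 ± 0.098 for Ldha (adjusted p = 0.000341) and -0.57 ± 0.094 for Tpi1 (adjusted p = 0.00131). Between strains with CpG, Tpi1, Ldha, Pgk1, Pgam1 and Eno1 did not pass. Hk2, Pfkl, Pdk1, Aldoa and Gapdh were lower in SjSS there, of which Pfkl, Aldoa and Gapdh did not pass on library totals alone. Without treatment Tpi1, Ldha, Pgam1, Eno1, Hk2 and Pfkl were higher in SjSS. Ldhb fell further in SjSS, with a difference of -0.83 ± 0.16 (adjusted p = 0.00354). Idh1 was the gene with a higher response, since its fall was smaller in SjSS by 0.68 ± 0.11 (adjusted p = 0.000802). The control samples of a strain enter both its responses, so the AC and CpG differences share them. Without SjSS CpG sample 1 the 13 were 8. Over 1.3 in size 0 of the 40 interactions passed, where 4.76% of all genes tested were higher and 2.77% lower for ACs, and 0.285% and 0.329% for CpG.

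**Figure D4:**
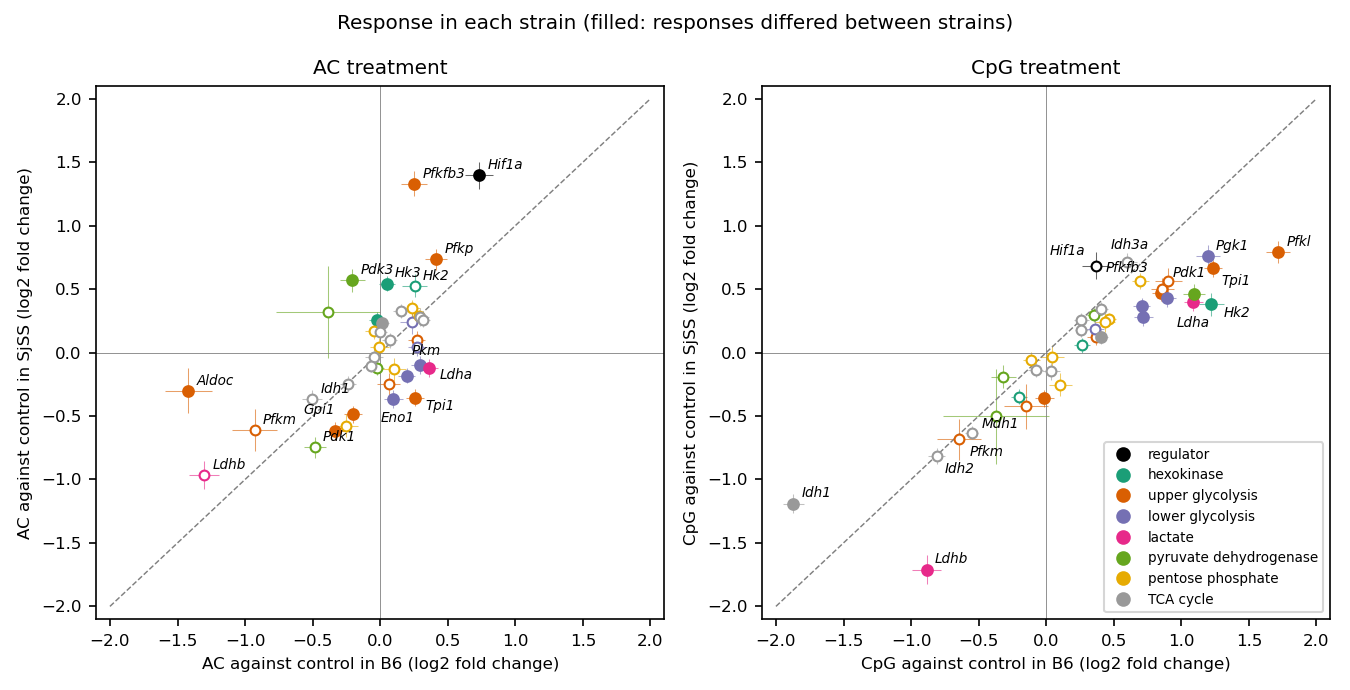
Response of each of the 40 genes in B6 (x axis) and SjSS (y axis), as log2 fold change against the control of the same strain, for ACs (left) and CpG (right); colours give the step, bars the standard error, and filled points are genes whose responses differed between strains (interaction adjusted p under 0.05). With CpG the induced glycolytic genes lie under the dashed line of equal response, and with ACs Hif1a and Pfkfb3 lie above it while Tpi1, Ldha, Pkm and Eno1 lie under it.

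Some of these genes have near-identical copies in the genome, among which reads can be divided when counts are estimated. At 90% identity over at least 300 bases, 13 of the 40 genes had such copies in the table, 126 rows in all. The copies held 87.6% of the counts of Pgk1 and its 2 copies, 80.1% of those of Gapdh and its 93 copies, 58.3% of those of Eno1 and its 4, 27.8% for Pgam1, 22.7% for Gpi1 and 11.3% for Pkm, and under 2% for the other 7. Levels of these genes are therefore uncertain, and those of Pgk1 and Gapdh above are far under the level with copies. With the copies summed, an alternative chosen after seeing the data, Gapdh had 671 ± 11.8 CPM (mean ± SD, n = 3) in B6 controls and 1099.9 ± 52.5 CPM with CpG, and Pgk1 467 ± 17.5 and 1077 ± 57.2 CPM. The CpG rises in B6 were then 0.71 ± 0.067 for Gapdh (adjusted p = 2.68e-08), 1.21 ± 0.077 for Pgk1 (adjusted p = 1.07e-10) and 0.73 ± 0.067 for Eno1 (adjusted p = 2.02e-08). Calls lost with copies summed were those of Gapdh for ACs in B6 (0.16 ± 0.067, adjusted p = 0.0611) and between strains with CpG, of Pgk1 for ACs in SjSS (0.15 ± 0.076, adjusted p = 0.102), between strains with ACs and for the CpG interaction, and of Eno1 between strains with ACs.

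**Figure D5:**
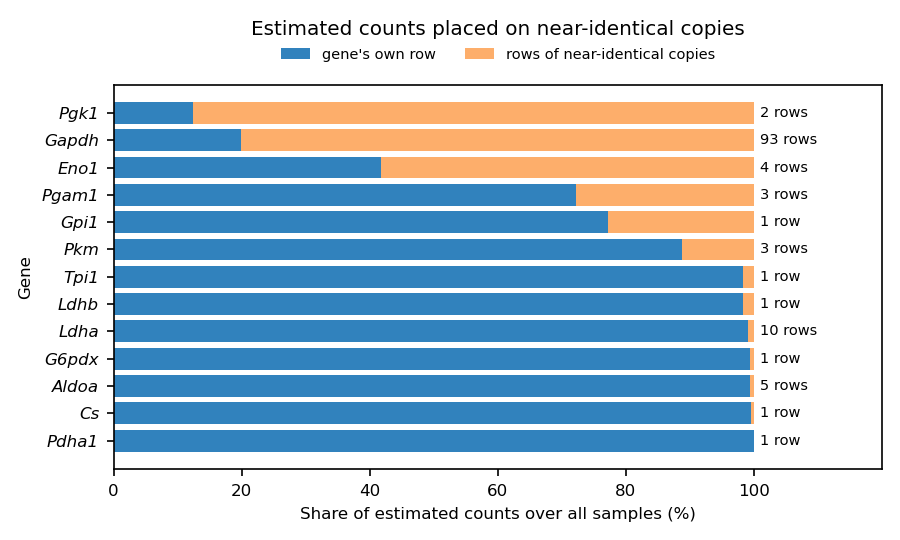
Share of the estimated counts, over all 18 samples, on the row of the gene itself (blue) and on rows of its near-identical copies (orange), for the 13 genes that had any; the number of copy rows stands at the right. Pgk1, Gapdh and Eno1 had 58.3% or more of their counts on copies.

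Beside the 40, 61 further genes of HIF regulation, gluconeogenesis, pyruvate entry and linked steps had rows in the table, and 58 of them had enough reads to be tested. The alternative fits, library totals and left-out samples were compared for the 40 genes only and not for these. With CpG 20 of the 58 rose and 23 fell in B6 (28.1% and 29.8% of all genes tested), while 21 rose and 20 fell in SjSS BMDMs (27.8% and 26.4%). Pcx, for pyruvate carboxylase, which refills the TCA cycle, rose from 3.47, 2 and 2.33 to 17, 12.4 and 11.2 CPM in B6 and by 2.12 ± 0.24 in SjSS, with 2.37 ± 0.23 in B6 (adjusted p = 3.24e-08 and 5.11e-07 for B6 and SjSS). Me1, for cytosolic malic enzyme, rose by 1.49 ± 0.14 in B6 (adjusted p = 2.48e-08), and Egln3, for a prolyl hydroxylase that marks HIF-α for removal, by 1.85 ± 0.31 (adjusted p = 4.34e-05). Hif3a, at 0.387, 0.562 and 0.363 CPM in SjSS controls and 4.99, 3.48 and 5.05 CPM with CpG, rose by 3.40 ± 0.27 (adjusted p = 2.43e-09) and in B6 by 1.98 ± 0.25 (adjusted p = 1.28e-06). Pdk2 fell with CpG, from 10.8, 10.3 and 10.7 to 2.74, 3.06 and 2.76 CPM in B6 and at -1.56 ± 0.14 in SjSS, with -1.90 ± 0.14 in B6 (adjusted p = 9.82e-10 and 1.22e-08 for B6 and SjSS), so that it went against Pdk1. Got1, for cytosolic aspartate aminotransferase, fell in B6, with a log2 fold change of -1.59 ± 0.099 (adjusted p = 6.64e-11), and Epas1, for HIF-2α, fell in SjSS, with a log2 fold change of -1.42 ± 0.18 (adjusted p = 1.35e-06). Pgam2, the muscle phosphoglycerate mutase gene, fell in B6, with log2 fold changes of -1.53 ± 0.44 with CpG (adjusted p = 0.00609) and -1.63 ± 0.44 with ACs (adjusted p = 0.00646). The Hif3a response to CpG was higher in SjSS by 1.42 ± 0.37 (adjusted p = 0.0276).

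With ACs 13 of the 58 (22.4%) rose and 10 (17.2%) fell in B6, beside 20% and 18.3% of all genes tested, and 18 rose and 18 fell in SjSS (31% each), beside 28.6% and 29.4%, shares near those of all genes. In B6 the enolase gene Eno2 rose by 1.35 ± 0.16 (adjusted p = 2.77e-06) and Epas1 fell, with a log2 fold change of -1.55 ± 0.17 (adjusted p = 9.07e-07). In SjSS Minpp1, for an inositol polyphosphate phosphatase that can also act on 2,3-bisphosphoglycerate, rose from 29.8, 31.9 and 30.7 to 87.2, 92.5 and 96.2 CPM, by 1.58 ± 0.053 (adjusted p = 8.07e-15), beside 32.3, 29.9 and 32.4 and 32.3, 32.9 and 31.7 CPM in B6. Its responses differed by 1.54 ± 0.074 (adjusted p = 1.9e-11). Egln3 fell in SjSS, with a log2 fold change of -1.92 ± 0.37 (adjusted p = 0.000172), and Pdk2 fell at -1.47 ± 0.14 (adjusted p = 2.04e-08). The Egln3 responses differed by -1.93 ± 0.49 (adjusted p = 0.00424). Between the AC treated strains Minpp1 was higher in SjSS by 1.51 ± 0.053 (adjusted p = 5.49e-14), and Egln3 and Hif3a were lower, at -1.62 ± 0.37 and -1.305 ± 0.29 (adjusted p = 0.00129 and 0.00111).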

How the data were processed

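RNA-seq of BMDMs gave 18 samples in 6 groups of 3, grouped by their labels. The authors aligned reads to mm10 with STAR and quantified genes by Partek's E/M method. The deposited estimated counts per gene were not normalized, and 41.1% were not whole (tolerance 1e-06). Counts were rounded here. Genes were kept by filterByExpr (15789 of 20615) and fitted with edgeR 4.0.16 in R 4.3.3 (TMM, quasi-likelihood, 1 mean per group, all 18 samples), with 9 comparisons and Benjamini-Hochberg adjustment over all genes tested within each. Passing meant an adjusted p under 0.05, and a stricter rule also asked for a log2 fold change over 1.3 in size. The standard error is the size of the log2 fold change over the square root of F. Precision rests on totals of 30688336 to 57139662 counts per sample and on 3 samples per group. Alternatives were DESeq2 1.42.0, DESeq2 size factors, library totals alone, no filter, compared groups only, replicate blocks and each sample left out. Copies were found with BLAST 2.17.0 among GENCODE M21 transcripts. Of 19869 symbols in that annotation, 17583 (88.5%) had the table's chromosome and start, and printed coordinates are the table's. Figures used matplotlib 3.10.9. The fits were tested on simulated data.

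The 40 genes and the wider list were chosen with earlier results of these data known. Levels in every sample are given for Hif1a, the isoenzymes of hexokinase, phosphofructokinase, PFKFB, lactate dehydrogenase and pyruvate dehydrogenase kinase, G6pdx, Cs, Idh1, Gapdh, any of the 40 past the stricter rule, and the 3 largest increases and decreases per comparison. An alternative that summed near-identical copies was chosen after seeing the data. Of the wider list, at most 3 in each direction past the stricter rule are named. No gene set test was run.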

Additional observations from a re-analysis of the deposited data

Results flagged for a closer look

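The response to treatment differed between the strains, by the interaction of strain with treatment in edgeR (adjusted p under 0.05), for 29 results. Values are the log2 response in SjSS minus that in B6. With ACs the response was higher in SjSS for Aldoc (1.12), Pfkfb3 (1.08), Pdk3 (0.78), Hif1a (0.66), Hk3 (0.49), Pfkp (0.32), Hk1 (0.29) and Cs (0.21). It was lower in SjSS for Tpi1 (-0.61), Ldha (-0.48), Eno1 (-0.46), Pkm (-0.39), Pgam1 (-0.38), Gpi1 (-0.29) and Pfkfb4 (-0.28). Of these, Pfkp was lost (adjusted p = 0.0509 to 0.132) without B6 control sample 2 or 3 or SjSS control sample 1 or 3 or B6 AC sample 1, 2 or 3 or SjSS AC sample 1, 2 or 3, Cs (adjusted p = 0.0518 to 0.0583) without B6 control sample 2 or SjSS control sample 2 or B6 AC sample 2 or SjSS AC sample 3, Gpi1 (adjusted p = 0.0549 to 0.0659) without SjSS control sample 3 or B6 AC sample 1, and Pfkfb4 (adjusted p = 0.0525 to 0.095) without B6 control sample 1 or 2 or SjSS control sample 2 or 3 or B6 AC sample 1 or SjSS AC sample 1 or 3. On library totals alone the differences of Hif1a, at 0.32 (adjusted p = 0.0572), and Hk3, at 0.15 (adjusted p = 0.138), did not pass, and those of Hk1, Pfkp and Cs turned.

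With CpG the response was lower in SjSS for Pfkl (-0.92), Hk2 (-0.84), Ldhb (-0.83), Ldha (-0.69), Pdk1 (-0.63), Tpi1 (-0.57), Gapdh (-0.46), Eno1 (-0.44), Pgk1 (-0.43), Aldoa (-0.38), Pfkfb4 (-0.35), Pgam1 (-0.34) and Ogdh (-0.28), and higher for Idh1 (0.68). Tpi1, Ldha, Eno1, Pgam1 and Pfkfb4 were lower in SjSS for both treatments, which share the control samples of each strain. Calls lost when 1 sample was left out were those of Aldoa (adjusted p = 0.0601) without SjSS CpG sample 1, Pgam1 (adjusted p = 0.0534 to 0.0716) without SjSS control sample 2 or B6 CpG sample 1 or SjSS CpG sample 1, Ogdh (adjusted p = 0.0525 to 0.102) without B6 control sample 1 or 2 or SjSS control sample 2 or 3 or B6 CpG sample 1 or 2 or SjSS CpG sample 1 or 2 or B6 AC sample 3 and Pfkfb4 (adjusted p = 0.0504 to 0.11) without B6 control sample 1 or 2 or SjSS control sample 2 or 3 or B6 CpG sample 2 or 3 or SjSS CpG sample 1 or 2 or B6 AC sample 2 or 3 or SjSS AC sample 1, and that of Pgk1 (adjusted p = 0.0502 to 0.125) without B6 control sample 1, 2 or 3 or SjSS control sample 2 or 3 or B6 CpG sample 1 or 2 or SjSS CpG sample 1 or 2 or SjSS AC sample 1, 2 or 3. The differences of Pfkfb4, Pgk1 and Ogdh did not pass on library totals alone, at -0.30 (adjusted p = 0.0925), -0.38 (adjusted p = 0.0751) and -0.23 (adjusted p = 0.0643).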

How the results depend on the processing

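Of 186 results of single genes that passed, DESeq2's Wald test and DESeq2 size factors each lost 1, the fit without a filter 6, the fit of compared groups only 14, summing near-identical copies 6, and library totals alone 30, none with a change of direction except on library totals. There 17 turned over. For ACs in SjSS they were Hk1 (-0.15), Pgk1 (-0.18), G6pdx (-0.13), Pgd (-0.064), Taldo1 (-0.24), Cs (-0.18), Idh3a (-0.13), Ogdh (-0.25), Sucla2 (-0.085) and Mdh2 (-0.16), for SjSS against B6 with ACs Hif1a (-0.022), Pgk1 (-0.047), Ldhb (-0.021) and Cs (-0.14), and for the AC interaction Hk1 (-0.056), Pfkp (-0.021) and Cs (-0.13). That scale moves the median of all genes, as given above. Its counts of higher and lower genes were 3 and 29 for ACs in SjSS, 7 and 26 for SjSS against B6 with ACs, 1 and 5 with CpG, and 3 and 25 for the AC interaction, and 13 genes fell with CpG in SjSS. The counts over all genes tested stand beside these above. That scale also added calls, among them falls of Ldha, Pkm, Gapdh, Aldoa, Aldoc and Pdha1 for ACs in SjSS. With CpG Suclg1 fell on it in both strains, at -0.26 in each (adjusted p = 0.000592 in B6 and 0.000606 in SjSS by edgeR).

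With the log2 fold change also over 1.3 in size, ACs in B6 left 0 higher and 2 lower (Aldoc and Ldhb), ACs in SjSS 2 higher and 0 lower (Hif1a and Pfkfb3), CpG in B6 1 and 1 (Pfkl and Idh1), CpG in SjSS 0 and 1 (Ldhb), SjSS against B6 with ACs 1 and 0 (Pdk4), and the other strain comparisons and both interactions 0 and 0.

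Leaving out 1 sample at a time lost at least 1 call for 39 of the 186 results. Counts of higher genes ranged from 11 to 16 and lower from 7 to 9 for ACs in B6, 13 to 16 and 10 to 13 for ACs in SjSS, 25 and 7 throughout for CpG in B6, 19 to 23 and 7 to 10 for CpG in SjSS, 7 to 13 and 2 to 4 for the strains without treatment (7 without SjSS control sample 3), 10 to 14 and 3 to 5 with ACs, 0 and 7 to 13 with CpG (7 without SjSS CpG sample 1), 6 to 10 and 5 to 10 for the AC interaction, and 1 and 8 to 13 for the CpG interaction (8 without SjSS CpG sample 1). A left-out sample leaves 2 in its group.

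Same-numbered samples correlated in their deviations from the group means at 0.020 to 0.26, with 9 of 18 pairs over 0.1, and 16 of 18 samples correlated best with their own number, a hint from the data and not the design. The replicate block changed 3 calls (Pgk1 for ACs in B6, 0.23, adjusted p = 0.0526 by edgeR; Ldhb between strains with ACs, 0.28, adjusted p = 0.0544; Pgk1 for the CpG interaction, -0.43, adjusted p = 0.0552), with 14 higher and 9 lower for ACs in B6, and the block within strain changed none of the 143 results it could give. Depth limited the measurement of Pdk4, at 0.584 to 3.90 CPM.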
